A study of Mus musculus with 4 samples.

Results

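The genes described here carry symbols of the form Zfp followed only by digits, the mouse naming series for zinc finger proteins. They were chosen by symbol and by level: 333 such symbols were listed, and 220 had a mean FPKM of 2 or more across the 4 libraries, among 10609 genes that met this minimum. FPKM counts sequenced fragments per unit of transcript length and per unit of library total. The mean level therefore chose the genes and is given only as a description. Of the symbols left out, 113 lay under the minimum and 3 of these were listed at 0 in every library. Just inside the minimum stood Zfp788 and Zfp74, with means of 2.05 and 2.05 FPKM, and just outside it Zfp287 and Zfp949, with means of 1.998 and 1.992 FPKM.

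RNA was sequenced from 4 cultures of immortalized mouse embryonic fibroblasts, cells grown out of mouse embryos, with 1 library per culture. One culture carried an empty vector and the others carried Myc, MycN or a protein labelled Minimal Myc. All 4, the vector culture included, had been given an adenovirus that delivers Cre recombinase, and the series design calls the cells compared with these proteins Myc-deleted. The strain, the Myc allele and the promoter that drives each protein are not stated in the labels, and recovery before harvest is given as 48 with no unit. The labels give 1 culture per group, do not say whether any is a single clone, and do not name the gene that Minimal Myc derives from. With 1 library per group no difference has a replicate check and no test was run. Sequencing depth is unknown, since the tables hold no counts.

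Zinc finger proteins fold short loops around zinc, most often held by a pair of cysteines and a pair of histidines (the C2H2 finger). Arrays of such fingers read DNA sequence, and many of these proteins in mouse also carry a KRAB domain, which recruits the corepressor Trim28 and, through it, the histone methyltransferase Setdb1 and HP1 proteins. KRAB zinc finger genes have multiplied by local duplication, lie in clusters of similar genes and are known for silencing transposable elements and for guarding imprinted regions. A Zfp symbol records a finger and not a function, and some of these genes encode RNA-binding, ribosome or spindle proteins.

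The libraries differed in ways that touch every value below. Myc transcript was at 22.2 FPKM with vector, 141 with Myc, 4.36 with MycN and 32.6 with Minimal Myc, and Mycn at 0.390, 0.275, 178 and 95.9 FPKM in the same order, so the vector library is not shown to lack Myc transcript. For Malat1, a long RNA kept in the nucleus, the values were 381 FPKM with vector, 124 with Myc, 192 with MycN and 64.04 with Minimal Myc. Over all genes tested the median difference from vector, on the scale of log2(FPKM + 1), was 0.50 with Myc, 0.44 with MycN and 0.50 with Minimal Myc, so a gene at the median of all genes lay above vector in each. Of 11 fibroblast markers 10 had a mean of at least 2 FPKM, with Lum near 0, and the list summed to 2612 to 3559 FPKM per library. The epithelial list summed to 0.140 to 0.663 FPKM and the endothelial list to 0.146 to 1.19 FPKM. Other lists were not near 0. The neural list summed to 12.746 to 24.038 FPKM, mostly Tubb3, and the skeletal muscle list to 14.4271 to 19.87 FPKM, mostly Acta1. The pluripotent list summed to 7.91814 to 13.3761 FPKM, mostly Nanog, and the immune list to 3.00025 to 8.1601 FPKM, mostly Cd68 and Csf1r. The adipocyte list summed to 7.87 FPKM with vector, 9.92 with Myc, 54.7 with MycN and 10.7 with Minimal Myc. Fabp4 made up most of it, at 52.96 FPKM with MycN, while Adipoq and Plin1, which define fat cells, stayed under 0.1 FPKM in every library. Pparg, the remaining gene of the list, was 0.256 FPKM with vector, 0.131 with Myc, 1.57 with MycN and 0.858 with Minimal Myc. All 4 genes of the list were highest in MycN. Whether any of these differences between libraries had a part in the Zfp values was not tested, except where a value is given beside the result.

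The label was checked against sequence. A coding sequence was found for 219 of the 220 genes in the reference annotation, and 210 of them held at least 1 C2H2 pattern (cysteines 2 to 4 residues apart, 12 residues, then histidines 3 to 5 residues apart). The median was 9 fingers and the maximum 36, in Zfp142. No such pattern was found in 9: Zfp36, Zfp259, Zfp330, Zfp365, Zfp503, Zfp703, Zfp781, Zfp839 and Zfp935. Zfp36, or tristetraprolin, has fingers of another kind that bind RNA, so the label of transcription factors does not hold for every gene of the group. A KRAB match was found in 102 genes, with a median of 12 fingers, and was not found in 117, with a median of 7. The match rests on short sequence patterns, so the genes without one may include some that carry a KRAB domain.

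The Zfp genes were weakly expressed. Their means ran from 2.05 to 68.9 FPKM with a median of 5.40, against 13.4 over all genes tested, and 173 of the 220 lay under 10 FPKM. The most abundant was Zfp207, whose product loads the checkpoint protein Bub3 onto kinetochores, at 49.7 FPKM with vector, 76.9 with Myc, 63.4 with MycN and 85.7 with Minimal Myc. After it came Zfp706 with a mean of 39.8 FPKM, Zfp106 with 37.7, Zfp664 with 31.9 and Zfp91 with 30.4. None of the 220 was listed at 0 in any library.

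Vector was the most frequent lowest library of the Zfp genes and MycN the most frequent highest one, and 98 of the 220 (44.5%) were both lowest in vector and highest in MycN, against 19.5% of all genes tested. Vector held the lowest level of 175 of the 220 (79.5%), against 71.0% of all genes tested. MycN held the highest level of 125 (56.8%), Minimal Myc of 51, Myc of 39 and vector of 5. Of all genes tested, 28.1% were highest with MycN, 37.1% with Minimal Myc, 30.4% with Myc and 4.42% with vector. The most frequent order of the 3 Myc proteins was MycN above Myc above Minimal Myc, seen in 88 of the 220 Zfp genes and in 20.6% of all genes tested. The reverse order, with Minimal Myc above Myc above MycN, was seen in 21 Zfp genes (9.55%) and in 26.9% of all genes. With each library centred on its own median gene, 117 Zfp genes (53.2%) were highest in MycN, against 26.8% of all genes. In the table that the authors scaled by 1 factor per library (vector 1, Myc 2.04, MycN 1.30, Minimal Myc 1.28), the Myc library was highest for 193 Zfp genes and for 85.4% of all genes, and MycN for 12 Zfp genes and 4.89% of all genes. Which library is highest thus rests on the scaling. In bulk RNA, fewer cells of a type and less RNA per cell cannot be told apart.

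**Figure D1:**
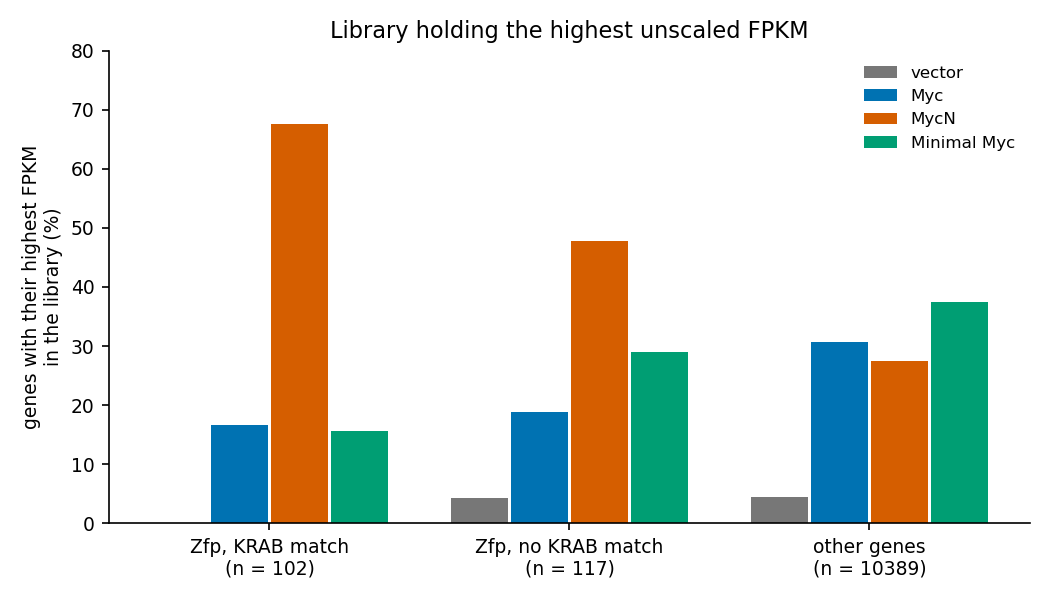
Share of genes (%) whose highest unscaled FPKM fell in each of the 4 libraries, for Zfp genes with a KRAB match (n = 102), Zfp genes without one (n = 117) and other genes tested (n = 10389). The MycN bar is the tallest in both Zfp groups, at 67.6% and 47.9%, and stands at 27.5% among other genes.

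Against vector, the Zfp genes as a group stood near or below the median gene in Myc and Minimal Myc and slightly above it in MycN. The comparisons asked how expression differs from that of the vector culture, and they share its 1 library. In Myc the median difference was 0.43 (log2), against 0.50 over all genes. It was 0.53 against 0.44 in MycN and 0.37 against 0.50 in Minimal Myc. A difference above 0 was found for 192 of the 220 in Myc (85.6% of all genes), 209 in MycN (83.3% of all genes) and 197 in Minimal Myc (85.6% of all genes). All 3 Myc proteins lay above vector for 175 Zfp genes (79.5%), against 71.0% of all genes tested.

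Few Zfp genes differed from vector by 2-fold. In Myc 10 were at least 2-fold higher, where 11.8% of all genes were, and 2 at least 2-fold lower, where 1.42% were. In MycN 17 were higher (all genes 7.71%) and 0 lower (all genes 1.76%). In Minimal Myc 10 were higher (all genes 14.0%) and 1 lower (all genes 1.56%). As shares of the 220 the higher counts are 4.55%, 7.73% and 4.55%, so they lie under the background in Myc and Minimal Myc and near it in MycN. Adding 1 FPKM before the logarithm understates differences of genes this weak. With 0.1 FPKM added, 23, 44 and 14 of the 220 were at least 2-fold higher, where 15.7%, 11.5% and 17.3% of all genes were, so the MycN share was then above that of all genes and the others below it. After the scaling 176, 76 and 30 were at least 2-fold higher than with vector in Myc, MycN and Minimal Myc, where 82.6%, 28.8% and 35.6% of all genes were.

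**Figure D2:**
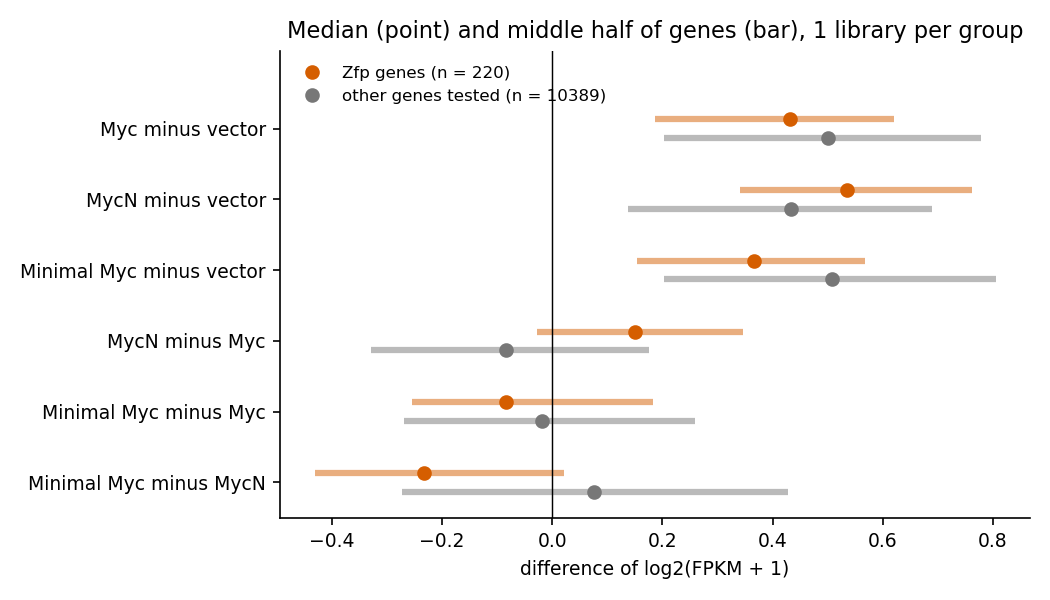
Difference of log2(FPKM + 1) in the 6 comparisons for the 220 Zfp genes (orange) and the 10389 other genes tested (grey), with the median as a point and the range from the first to the third quartile as a bar. The groups lie farthest apart in the bottom row, Minimal Myc minus MycN, with medians of -0.23 and 0.08.

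The comparisons between Myc proteins do not use the vector library. Between MycN and Myc the median Zfp difference was 0.15, while that of all genes was -0.08, and 159 of the 220 were higher in MycN, against 41.9% of all genes. Between Minimal Myc and MycN the Zfp median was -0.23, while that of all genes was 0.07, and 60 of the 220 were higher in Minimal Myc, against 55.1% of all genes. Between Minimal Myc and Myc the medians were -0.08 and -0.02, and 92 were higher in Minimal Myc, against 48.1% of all genes. The factors of MycN and Minimal Myc nearly match, so the scaled table gave a similar Zfp median of -0.26 for that pair. For MycN minus Myc the scaled table gave -0.42, while all genes stood at -0.69 there. The Zfp median thus changes sign with the scaling, while its distance above all genes was 0.23 unscaled and 0.27 scaled. Counts at 2-fold were small: 2 higher and 1 lower in MycN than in Myc (all genes 1.75% and 2.66%), 3 higher and 1 lower in Minimal Myc than in Myc (4.12% and 1.97%), and 1 higher and 5 lower in Minimal Myc than in MycN (6.75% and 3.31%). After the scaling 6 were at least 2-fold lower with MycN than with Myc, where 21.2% of all genes were, and 29 with Minimal Myc than with Myc, where 17.7% were. Most differences between Myc proteins were thus under 2-fold.

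Level was examined next, because weak genes as a class also leaned towards MycN. Of other genes with a mean of 2 to 5 FPKM 36.1% were highest in MycN, of those at 5 to 10 FPKM 32.1%, and of those at 10 FPKM or more 23.5%. The Zfp shares in the same bands were 56.4% of 101 genes, 58.3% of 72 and 55.3% of 47. For Minimal Myc minus MycN the Zfp medians were -0.21, -0.26 and -0.21 in the 3 bands, against -0.10, -0.01 and 0.14 for other genes. For MycN minus vector they were 0.47, 0.62 and 0.56, against 0.33, 0.41 and 0.46. Levels were not alike within the top band, where the median was 15.02 FPKM for the Zfp genes and 25.2 FPKM for other genes.

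**Figure D3:**
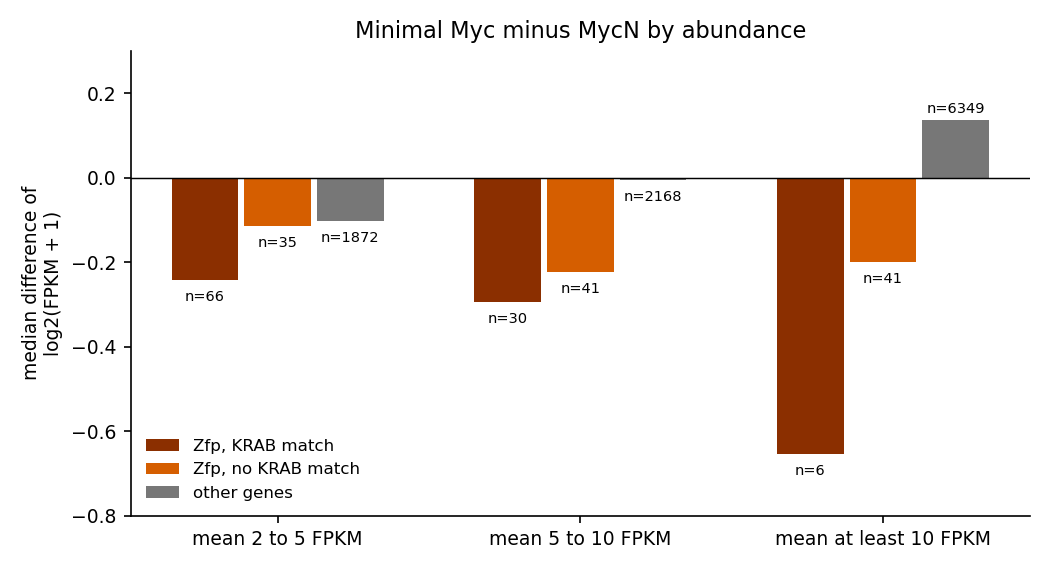
Median difference of log2(FPKM + 1) between Minimal Myc and MycN by band of mean FPKM, for Zfp genes with a KRAB match, Zfp genes without one and other genes, with the number of genes at each bar. Bars of the Zfp genes lie below 0 in all 3 bands, and those with a KRAB match reach lower (-0.24, -0.29 and -0.65).

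Genes with a KRAB match leaned to MycN more than those without one. Of the 102 with a match, 69 (67.6%) were highest in MycN, and of the 117 without one, 56 (47.9%). Over all genes tested the share was 28.1%. The medians for Minimal Myc minus MycN were -0.28 and -0.18, and those for MycN minus Myc 0.19 and 0.11. Genes with a match were weaker, with a median level of 3.88 FPKM against 7.75. Within the band of 2 to 5 FPKM 43 of 66 genes with a match (65.2%) and 14 of 35 without were highest in MycN. In the band of 5 to 10 FPKM the counts were 20 of 30 and 22 of 41. All 6 genes with a match and at least 10 FPKM were highest in MycN, against 20 of 41 without. MycN was above vector for 101 of the 102 genes with a match and for 107 of the 117 without one, against 83.3% of all genes tested. By number of fingers the share highest in MycN was 40.9% for 0 to 4, 59.7% for 5 to 9, 63.2% for 10 to 14, and it was 24 of 40 genes for 15 or more. The KRAB pattern was widened after the sequences were read. With the narrower pattern 89 genes matched, and 67.4% of them were highest in MycN.

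Among KRAB genes with known targets, Zfp57, which binds methylated imprinted regions and keeps them methylated, was the most abundant. It stood at 12.7 FPKM with vector, 21.7 with Myc, 30.3 with MycN and 15.1 with Minimal Myc. The MycN value was 2.39 times that of vector and the Minimal Myc value 1.19 times. Zfp445, its partner in the same task, was 8.81 FPKM with vector, 14.3 with Myc, 17.9 with MycN and 12.9 with Minimal Myc. Both were thus lowest in vector and highest in MycN. Zfp932, which silences endogenous retroviruses, was 9.27, 12.8, 15.5 and 13.8 FPKM in the same order of libraries. Zfp809, which recognizes the primer binding site of murine leukaemia viruses, was 4.03 FPKM with vector, 6.08 with Myc, 4.39 with MycN and 7.21 with Minimal Myc. Zfp568, a repressor of a placental Igf2 transcript, was 2.72, 4.50, 4.34 and 3.40 FPKM. Zfp809 was thus highest with Minimal Myc and Zfp568 with Myc, so the order was not shared by every KRAB gene. Zfp69 lay under the minimum, at 0.871 to 1.45 FPKM.

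Some other KRAB genes were among the 3 highest or 3 lowest of the 220 in a comparison. Zfp825 was 7.26 FPKM with vector, 19.1 with Myc, 22.4 with MycN and 11.3 with Minimal Myc. Zfp369, a neurotrophin receptor-interacting factor with both a SCAN and a KRAB domain, was 1.95 FPKM with vector, 5.83 with Myc, 4.54 with MycN and 2.23 with Minimal Myc. Zfp941 was 1.94, 3.48, 4.50 and 1.41 FPKM, and Zfp748 was 2.84, 5.71, 3.98 and 2.92 FPKM. In all 4 of these genes Myc and MycN lay above vector. Minimal Myc stood near vector in Zfp369 and Zfp748, with differences of 0.13 and 0.03 (log2), and below vector in Zfp941.

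The SCAN domain pairs zinc finger proteins with each other. Of the 8 symbols listed for it, 5 were tested, among them Zfp445 (above), and Zfp24 was in the table under its older symbol Zfp191. Zfp213 was 6.36 FPKM with vector, 8.60 with Myc, 11.2 with MycN and 12.6 with Minimal Myc, and Zfp263 was 4.17, 5.92, 7.32 and 7.18 FPKM. Zfp110, a close relative of Zfp369, was 2.15, 2.40, 3.65 and 3.99 FPKM. These 3 were thus higher in MycN and Minimal Myc than in Myc. Zfp191 was 9.77, 14.6, 12.04 and 14.998 FPKM, with MycN below both. In Zfp369 Myc was the highest and Minimal Myc near vector, so the relatives Zfp110 and Zfp369 differed in order.

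Zinc finger transcription factors listed as lacking a KRAB domain were described from a list of 29, of which 25 were tested. That heading is only the list's own, and Zfp746 in it may carry the domain. Lists were matched by symbol, and Zfp161 and Zfp238 of this one stood in the table as Zbtb14 and Zbtb18, counted with the Zbtb genes below. MycN held the highest level of 12 of the 25, Minimal Myc of 7 and Myc of 6, where 28.1%, 37.1% and 30.4% of all genes were highest. Their medians against vector were 0.50 with Myc, 0.50 with MycN and 0.45 with Minimal Myc, near those of all genes. Zfp281, a factor of GC-rich promoters known from embryonic stem cells, was the highest of the 220 in each comparison with vector. It stood at 4.003 FPKM with vector, 15.1 with Myc, 15.1 with MycN and 13.02 with Minimal Myc. Its differences were 1.68, 1.69 and 1.49 (log2), and it was the only 1 of the 220 at least 2-fold above vector in all 3, as were 1.56% of all genes. Its relative Zfp148 was 5.40, 6.77, 6.91 and 8.73 FPKM. Zfp217, which works with Lsd1 and CtBP corepressors, was 3.91 FPKM with vector, 8.20 with Myc, 8.38 with MycN and 7.01 with Minimal Myc. Zfp143, an activator of small nuclear RNA genes, was 3.96, 6.83, 5.87 and 5.78 FPKM. In Zfp281, Zfp217 and Zfp143 all 3 Myc proteins were thus above vector and close to each other.

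Zfp703 and Zfp503, paralogous repressors without a C2H2 match, went opposite ways between MycN and the other Myc proteins. Zfp703 was 13.5 FPKM with vector, 7.58 with Myc, 25.7 with MycN and 7.92 with Minimal Myc. Zfp503 was 5.71 FPKM with vector, 10.2 with Myc, 3.79 with MycN and 17.3 with Minimal Myc. Each was thus an extreme of the 220 in MycN minus Myc, at 1.64 and -1.22 (log2), and in Minimal Myc minus MycN, at -1.58 and 1.94. Zfp395 was 5.16 FPKM with vector, 11.4 with Myc, 16.3 with MycN and 7.74 with Minimal Myc. Outside this list, Zfp704 was 1.33 FPKM with vector, 0.611 with Myc, 2.89 with MycN and 3.74 with Minimal Myc, so it was low in Myc. Its mean was 2.14 FPKM, and it met the minimum of 2 only through MycN and Minimal Myc, where it was high. Its order among the libraries is thus tied to that choice and rests on very low values.

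Some listed factors have known roles in fat cell formation. Zfp516, a driver of brown fat genes, was 7.18 FPKM with vector, 10.04 with Myc, 14.6 with MycN and 10.8 with Minimal Myc. Zfp521, an antagonist of adipogenesis, was 2.14, 3.81, 3.997 and 5.58 FPKM, and Zfp467, a promoter of it, was 3.05, 3.23, 3.68 and 5.47 FPKM. Zfp423, a factor of committed preadipocytes, was at most 0.0275 FPKM. Fabp4, a fatty acid carrier, at 7.61 FPKM with vector, 9.75 with Myc, 52.96 with MycN and 9.80 with Minimal Myc, was high in the same library as Zfp516, and whether the 2 are linked was not tested. Of the partners of the chromatin reader Zmynd8, Zfp687 was 6.37, 8.98, 11.1 and 8.14 FPKM, Zfp592 was 4.14, 4.99, 4.67 and 4.07 FPKM, and Zfp532 was 4.02, 3.54, 3.43 and 7.13 FPKM. They were thus highest in MycN, Myc and Minimal Myc respectively. The remaining tested genes of this list lay between 3.93 and 34.9 FPKM in all libraries: Zfp219, Zfp462, Zfp367, Zfp335, Zfp410, Zfp652, Zfp64, Zfp91, Zfp292, Zfp609, Zfp644 and Zfp746. Zfp131 was listed at 0 in every library, which can be a failed estimate.

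Genes whose Zfp symbol hides a role in RNA, ribosomes or the spindle were described from a list of 12, of which 11 were tested. Minimal Myc held the highest level of 7, MycN of 2 and Myc of 2, where 37.1%, 28.1% and 30.4% of all genes were highest. Their medians against vector were 0.70 with Myc, 0.45 with MycN and 0.66 with Minimal Myc, against 0.50, 0.44 and 0.50 over all genes. Zfp593, the relative of a yeast factor of large ribosomal subunit assembly, was 2.97 FPKM with vector, 7.93 with Myc, 4.39 with MycN and 9.16 with Minimal Myc. It was thus at least 2-fold above vector in Myc and Minimal Myc, at 1.17 and 1.36 (log2), and 0.44 above it in MycN. Zfp622, another factor of large subunit maturation, was 15.4, 16.9, 19.99 and 20.8 FPKM. Zfp598, a ubiquitin ligase of collided ribosomes, was 18.2 FPKM with vector, 30.3 with Myc, 38.3 with MycN and 25.7 with Minimal Myc. Zfp593 and Zfp622 were thus highest in Minimal Myc and Zfp598 in MycN.

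Among RNA-binding members, Zfp106 was 24.2 FPKM with vector, 51.8 with Myc, 43.6 with MycN and 31.1 with Minimal Myc, and Zfp346, which binds double-stranded RNA, was 5.98, 13.8, 9.44 and 8.14 FPKM. Both were highest in Myc. Zfp36, which speeds the decay of AU-rich messenger RNAs of cytokines, was 9.57 FPKM with vector, 9.66 with Myc, 11.5 with MycN and 16.2 with Minimal Myc. Zfp326 and Zfp830, of splicing, were 14.1 and 4.20 FPKM in vector, 23.9 and 7.02 in Myc, 19.6 and 6.73 in MycN, and 24.6 and 7.19 in Minimal Myc. Zfp259, the gene now named Zpr1, was 9.86, 16.8, 13.7 and 23.1 FPKM. These 4 were highest in Minimal Myc, as was Zfp207. Zfp330, a nucleolar protein gene, was 21.1, 29.7, 37.6 and 28.9 FPKM.

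Only 5 of the 220 were highest in vector: Zfp277, Zfp362, Zfp407, Zfp488 and Zfp608 (4.42% of all genes). Zfp488, a factor of oligodendrocyte development, was 33.7 FPKM with vector, 12.4 with Myc, 20.4 with MycN and 14.3 with Minimal Myc. It was the lowest of the 220 in each comparison with vector, at -1.37, -0.69 and -1.18 (log2). Zfp277 was 25.3 FPKM with vector, 12.99 with Myc, 16.8 with MycN and 13.2 with Minimal Myc. Zfp362 was 4.50 FPKM with vector, 1.51 with Myc, 3.04 with MycN and 4.42 with Minimal Myc, so Myc was the lowest, MycN lay between and Minimal Myc was near vector. In the scaled table Zfp488 stood at 33.7, 25.4, 26.6 and 18.4 FPKM, still highest in vector, and it was the only 1 of the 220 to be so.

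**Figure D4:**
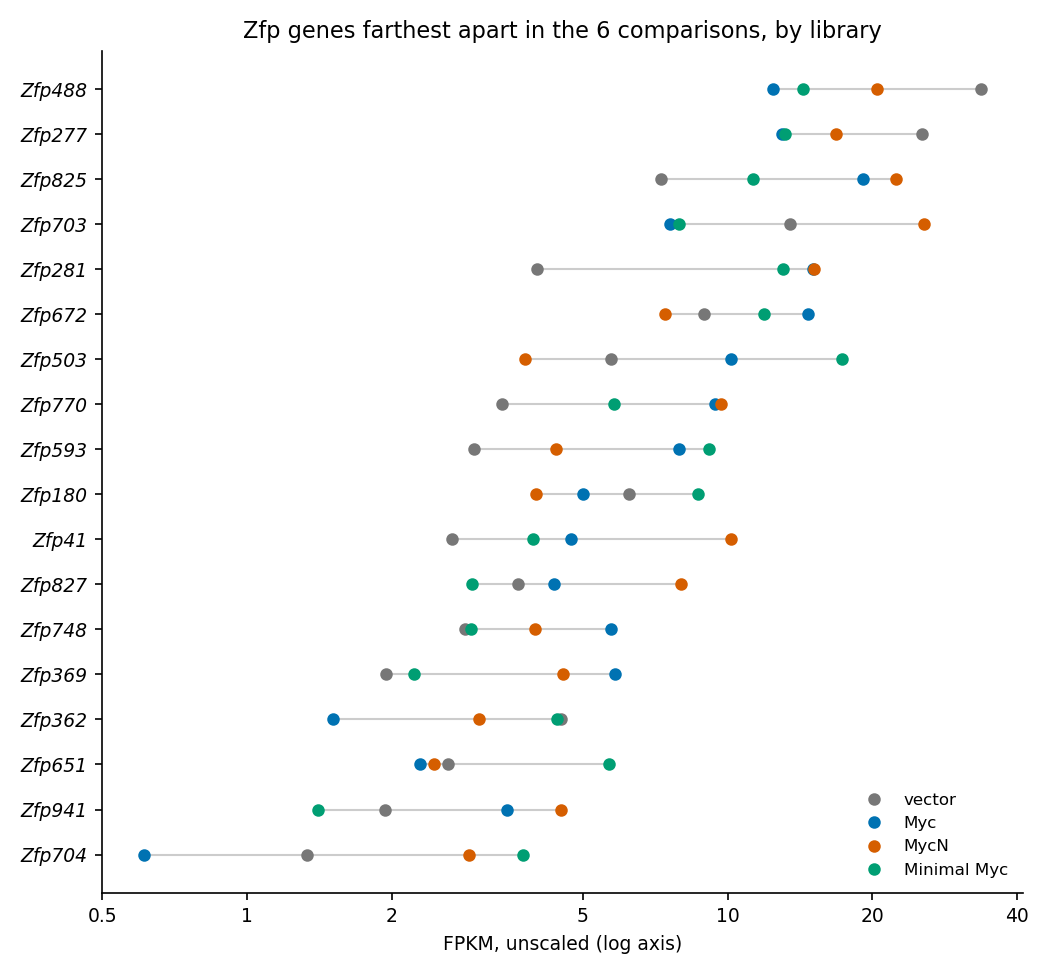
Unscaled FPKM (log axis) in each of the 4 libraries for the Zfp genes that were among the 3 highest or 3 lowest in a comparison, ordered by mean level, with 1 point per library. MycN (orange) stands well to the right of the other points in Zfp703, Zfp41 and Zfp827 and is the leftmost in Zfp503, Zfp672 and Zfp180.

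The remaining genes of that set were ordered in several ways. Zfp41 was 2.67 FPKM with vector, 4.72 with Myc, 10.2 with MycN and 3.94 with Minimal Myc, and Zfp827 was 3.66, 4.36, 8.003 and 2.93 FPKM, with MycN high in both. Zfp651 was 2.62, 2.29, 2.45 and 5.68 FPKM, with Minimal Myc high. Zfp672 was 8.93, 14.7, 7.41 and 11.9 FPKM and Zfp180 was 6.25, 5.001, 3.99 and 8.68 FPKM, with MycN the lowest in both. Zfp770 was 3.40, 9.40, 9.67 and 5.81 FPKM, with Myc and MycN high.

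Chromosomes differed in how often their genes were highest in MycN, and Zfp genes are unevenly spread over them. By RefSeq placement on GRCm38.p6 the largest groups of Zfp genes were 49 on chromosome 7, 29 on chromosome 17 and 17 on chromosome 8. On chromosome 8, 15 of 17 Zfp genes (88.2%) were highest in MycN, as were 66.7% of the 574 other genes tested there. On chromosome 17, 23 of 29 Zfp genes (79.3%) were, and 53.0% of 534 other genes. These chromosomes thus stood above the 28.1% of all genes, whether or not a gene was a Zfp gene. Zfp57 and Zfp598, both highest in MycN, lie on chromosome 17, and Zfp330, also highest in MycN, lies on chromosome 8. On chromosome 5 the shares were 86.7% of 15 Zfp genes and 27.0% of 671 other genes, and on chromosome 7 they were 49.0% and 27.6%. On chromosome 9 they were 35.7% of 14 and 14.3% of 572, and on chromosome 13 36.4% of 11 and 9.90% of 394. MycN was not the most frequent highest library of the Zfp genes on chromosomes 9 and 13. On chromosome 9, 7 of the 14 Zfp genes and 60.0% of other genes were highest in Minimal Myc. On chromosome 13, 6 of the 11 Zfp genes and 56.1% of other genes were highest in Myc. Without chromosomes 8 and 17, 87 of 174 Zfp genes were highest in MycN, against 23.6% of 9250 other genes, and the medians for Minimal Myc minus MycN were -0.18 and 0.11. Without them 42 of 70 genes with a KRAB match and 45 of 103 without one were highest in MycN.

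**Figure D5:**
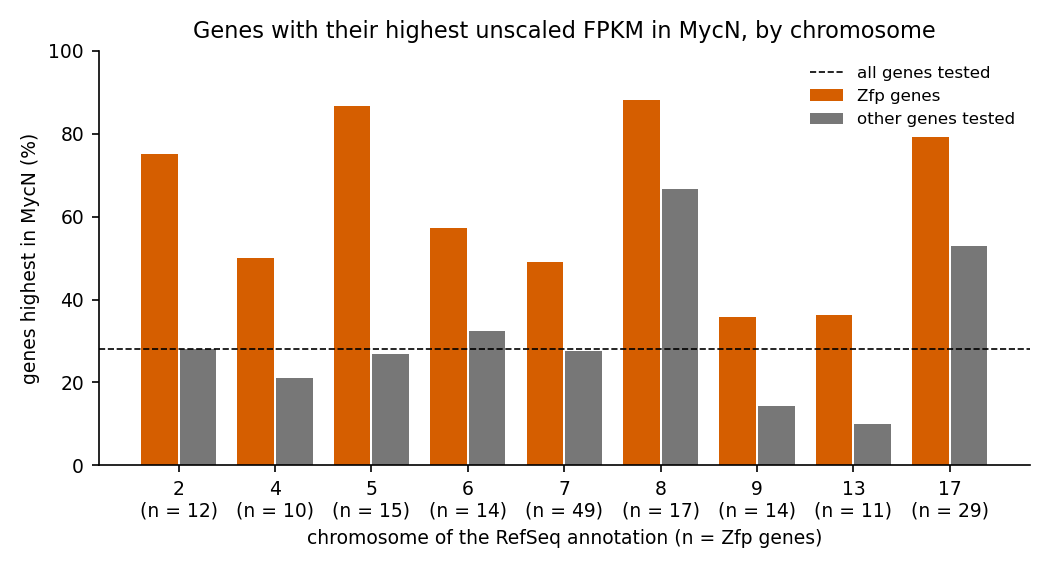
Share (%) of Zfp genes (orange) and of other genes tested (grey) with their highest unscaled FPKM in MycN, for chromosomes with at least 10 Zfp genes, with a dashed line at the 28.1% of all genes. The orange bar is above the grey one on each of the 9 chromosomes shown, and the grey bars of chromosomes 8 (66.7%), 17 (53.0%) and 6 (32.4%) stand above the line.

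Position next to another Zfp gene was compared as well. Of 76 genes next to another of the 220 in the order of protein-coding genes, 41 (53.9%) were highest in MycN, and of 143 others 84 (58.7%). Cluster genes have similar sequences, and how the authors' counting shared reads between them is not stated in the labels, so single values in clusters are uncertain. Rows of Zfp781 and of Zfp433 differed in the table and were summed.

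Promoters were searched for CACGTG, the E-box that Myc binds with its partner Max, which reads the same on both strands. The window ran from 250 bases before to 50 after each RefSeq start (GRCm38.p6). It was found in 16 of the 175 Zfp genes with an entry (9.14%), in 12.2% of 8480 genes tested and in 8.09% of all 27025 genes with an entry. The 16 had a median difference from vector of 0.38 in Myc and 0.56 in MycN, and the 159 without it 0.42 and 0.52. A match is a description and not a binding site. The stretches below are the matches on chromosome 17 that lie wholly before the start, with 30 bases on each side. They are shown because 6 Zfp genes of that chromosome held one and because some are copies of each other. Capitals mark the E-box, and each is written 5′ to 3′ on the strand of its gene.
Zfp758 (chr17:22361394-22361459, plus strand): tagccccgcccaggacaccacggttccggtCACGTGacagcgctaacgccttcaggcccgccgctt
Zfp943 (chr17:21962483-21962548, plus strand): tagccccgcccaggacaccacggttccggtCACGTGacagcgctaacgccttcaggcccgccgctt
Zfp942 (chr17:21962483-21962548, minus strand): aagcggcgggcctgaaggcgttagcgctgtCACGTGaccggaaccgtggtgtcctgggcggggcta
Zfp820 (chr17:21845843-21845908, minus strand): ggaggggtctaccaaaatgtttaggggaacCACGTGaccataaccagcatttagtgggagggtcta
Zfp947 (chr17:22166013-22166078, minus strand): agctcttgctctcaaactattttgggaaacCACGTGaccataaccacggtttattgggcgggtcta
Zfp871 (chr17:32788341-32788406, minus strand): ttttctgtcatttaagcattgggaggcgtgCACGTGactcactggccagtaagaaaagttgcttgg

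Zfp942 and Zfp943 share 1 E-box, read from opposite strands between their starts. The stretch of Zfp758 was identical to that of Zfp943 in 66 of 66 bases, and those of Zfp820 and Zfp947 matched in 48 of 66. Zfp942 was 4.96 FPKM with vector, 6.66 with Myc, 9.57 with MycN and 7.60 with Minimal Myc, and Zfp943 was 2.85, 3.93, 4.40 and 4.34 FPKM. Zfp758, with the same 66 bases as Zfp943, was 2.29, 2.98, 3.30 and 3.32 FPKM. Zfp820 was 1.93 FPKM with vector, 3.50 with Myc, 5.16 with MycN and 3.13 with Minimal Myc, and Zfp947 was 1.84, 1.95, 3.23 and 3.09 FPKM. Zfp871 was 8.62, 12.9, 16.2 and 8.50 FPKM. MycN was above Myc in all 6, as it was in 26 of the 29 Zfp genes and 367 of the 534 other genes of chromosome 17, while Minimal Myc ranged from just below vector in Zfp871 to the highest library in Zfp758.

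Most of the corepressors and heterochromatin factors listed for KRAB proteins lay above vector, as did most genes. Of 29 genes listed, 27 were tested, and 26, 25 and 27 of them lay above vector in Myc, MycN and Minimal Myc, where 85.6%, 83.3% and 85.6% of all genes did, with medians of 0.68, 0.66 and 0.60 against 0.50, 0.44 and 0.50 over all genes. At least 2-fold higher were 3, 3 and 4, near the 11.8%, 7.71% and 14.0% of all genes, and none of the 27 was at least 2-fold lower. Trim28 was 62.3 FPKM with vector, 110.4 with Myc, 95.1 with MycN and 98.8 with Minimal Myc, and Setdb1 was 12.3, 20.7, 21.5 and 21.2 FPKM. Atf7ip, a partner of Setdb1, was 10.2, 19.7, 23.9 and 10.6 FPKM. Cbx5, an HP1 protein, was 42.9, 40.6, 36.5 and 43.9 FPKM. MycN held the highest level of 12 of the 27 (44.4%), against 28.1% of all genes tested. The median of Minimal Myc minus MycN was -0.01, against 0.07 over all genes. Dnmt3b lay under the minimum.

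Other C2H2 families were counted in the same way. MycN held the highest level of 15 of 29 Zbtb genes (51.7%), 7 of 12 Zscan and Zkscan genes (58.3%), 6 of 11 Klf genes (54.5%) and 9 of 15 Zfp genes with letters after the digits, against 28.1% of all genes. Their medians for Minimal Myc minus MycN were -0.09, -0.27, -0.11 and -0.23, against -0.23 for the Zfp genes. The Klf medians against vector, 0.002 with Myc, 0.37 with MycN and -0.05 with Minimal Myc, lay below the Zfp medians. Of 6 symbols of Sp and digits, 1 was highest in MycN and the median of Minimal Myc minus MycN was 1.003. Sp100, Sp110 and Sp140 among them are nuclear body genes of the interferon response and not Sp factors. The families were named after their values were known, and the differences between them and the Zfp genes were not tested. Transcript length and GC content were compared as well. The Zfp transcripts had a median GC content of 47.005% and a median length of 3282 bases, against 50.2% and 2880.5 over all genes tested. Among genes under 10 FPKM in the middle range of both (40.7 to 53.7% GC and 2623 to 4665 bases), 26 of 44 Zfp genes (59.1%) and 273 of 910 other genes were highest in MycN.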

How the data were processed

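The authors deposited 2 tables of FPKM for the same 4 libraries, unscaled and multiplied by 1 factor per library. The submitters' processing notes name mm9, Cufflinks 2.2.0 and TopHat2 2.0.11 without saying what each did. Per the labels' protocols, polyadenylated RNA was sequenced with strand marked, and synthetic RNAs were added by cell number. The scaled values carry the label nanoScaled, which points to NanoString measurements. What the factors rest on, these or the synthetic RNAs, was not tested. The 32 NanoString rows were left out and none is of a Zfp gene. Depth is unknown, because FPKM carry no counts, so no counting interval is given. Identical rows of a gene were merged and differing rows summed. Genes at or above a mean FPKM of 2 were kept, after 295 small RNA genes were left out by symbol. A difference is that of log2(FPKM + 1), which understates differences of weak genes, and a 2-fold call is a difference of at least 1. No test was run. Genes were matched to RefSeq (GRCm38.p6) by accession (220 of 220), and coding sequences were translated from GENCODE M21 with the longest one per gene, in Python 3.11.15. Members, lists and the comparison were chosen with earlier results of these data known. Named genes were those of the role and corepressor lists, the 3 highest and 3 lowest per comparison and the 5 most abundant, and those beside the minimum. Zfp142, Zfp191, Zfp407, Zfp608, other C2H2 families, the genes without a finger match and those with printed promoters were named after their values were seen, as were the alternatives on GC content, on chromosomes and on the wider KRAB pattern. The calculation was tested on simulated data.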

Additional observations from a re-analysis of the deposited data

How the results depend on the processing

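The distance of the Zfp median from that of all genes tested kept its direction in all 6 comparisons with 0.1 FPKM added in place of 1, in scaled FPKM, with a minimum of 5 FPKM (119 Zfp genes), without genes whose rows differ, in the window of GC content and length, and without chromosomes 8 and 17. For Minimal Myc minus MycN it was -0.30, and -0.26 to -0.35 under these. With no minimum beyond 0 (330 Zfp genes of 19914) it was reversed for Myc minus vector (0.24) and Minimal Myc minus vector (0.21), and it moved to 0.35 for MycN minus vector, 0.10 for MycN minus Myc and -0.17 for Minimal Myc minus MycN, since very weak genes then set the median of all genes. In scaled FPKM the excess of Zfp genes highest in MycN over all genes was 0.562 percentage points in place of 28.7, and the Zfp median of MycN minus Myc was -0.42 in place of 0.15. The scaled Zfp medians against vector were 1.33, 0.86 and 0.66 in Myc, MycN and Minimal Myc in place of 0.43, 0.53 and 0.37. For Minimal Myc minus Myc the Zfp median was -0.67 scaled and -0.19 in the window of GC content and length, in place of -0.08. With 0.1 FPKM added that of MycN minus vector was 0.64. Counts at 2-fold depended on the setting. In scaled FPKM 176, 76 and 30 were higher than vector in Myc, MycN and Minimal Myc in place of 10, 17 and 10, 0 were lower than vector in any of them in place of 2, 0 and 1, 6 were lower in MycN than in Myc in place of 1, and 29 were lower and 1 higher in Minimal Myc than in Myc in place of 1 and 3. With 0.1 FPKM added, 23 and 44 were higher in Myc and MycN than in vector, and 5 higher and 9 lower in Minimal Myc than in MycN in place of 1 and 5. Also with 0.1 FPKM added, 4 were higher in MycN than in Myc in place of 2, and 2 lower in Minimal Myc than in Myc in place of 1. Without chromosomes 8 and 17, 11 were higher in MycN than in vector, 1 higher in MycN than in Myc, and 2 lower in Minimal Myc than in MycN. With the minimum of 5 FPKM, 1 was lower in Myc than in vector in place of 2, 1 higher in MycN than in Myc, 0 higher and 0 lower in Minimal Myc than in Myc in place of 3 and 1, and 2 lower in Minimal Myc than in MycN. With no minimum, 1 and 2 were lower than vector in MycN and Minimal Myc in place of 0 and 1, and 3 higher in Minimal Myc than in MycN. The 44 genes of the window held 2, 5 and 1 that were higher than vector, 0 past 2-fold between MycN and Myc, 0 higher in Minimal Myc than in Myc, and 0 higher and 2 lower in Minimal Myc than in MycN. Values were called unchanged within 0.1 (log2) or 10 percentage points, a set tolerance, since no replicate gives a spread. No paired analysis was possible because each group has 1 library, and for the same reason no library could be left out.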
